A study of Mus musculus with 4 samples.

Results

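The interferon-inducible p200 genes and Aim2 form a cluster on mouse chromosome 1 whose proteins sense or handle DNA. They were examined here in haematopoietic stem cells (HSCs) of Hif1a-/- and WT mice. The genes were chosen by a list of 6 symbols, Ifi213, Ifi205, Ifi204, Ifi203, Mnda and Aim2, proposed with earlier results of these arrays in view. Of the 6, 4 had a probe set with their symbol alone, and these 4 are described among 19938 measured genes. Ifi213, Ifi205, Ifi203 and Aim2 had 1 such probe set each. Ifi204 was covered only by a probe set shared with Ifi211, and no probe set carried the symbol Mnda, which the RefSeq gene table gives as a synonym of Ifi211. A further 6 genes of the family (Ifi202b, Ifi206, Ifi207, Ifi208, Ifi209 and Ifi214) were measured and are given for comparison.

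The Hif1a-/- group and the WT group held 2 arrays each, which the labels call biological replicates and number 1 and 2 within each group. All mice were of strain C57BL/6 (B6) and aged 8 weeks, and the cells were sorted from bone marrow by the markers Lin-, c-Kit+ and Sca-1+, which multipotent progenitors share with stem cells. The product of Hif1a is the subunit of the transcription factor HIF-1 that oxygen controls. The labels do not say which part of Hif1a was deleted, in which cells, or whether cells of several mice were pooled. Values are log2 signals normalized between arrays by the authors, so a difference of 1 is a 2-fold difference. The precision is limited by having 2 arrays per group.

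Most p200 proteins carry a HIN domain, which binds DNA, and many also carry a pyrin domain, through which proteins of this kind assemble with each other. Aim2 binds double-stranded DNA in the cytosol and recruits the adaptor Pycard (ASC) and caspase-1 into an inflammasome, which matures interleukin-1β and interleukin-18 and opens gasdermin D pores. Type I interferon raises many genes of the cluster through interferon-stimulated response elements (ISREs), which are bound by complexes of STAT and IRF factors.

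The promoters of the family are shown first, because most hold the same short element and because they fall into groups of near-identical sequence. RefSeq promoter windows (GRCm38.p6) run from 250 bases before to 50 bases after an annotated start. There were 14 windows for 12 genes of the cluster, 4 of them measured members. The full windows of Ifi213 and Ifi205, whose signals differed most over the arrays among the members, and of Aim2 are printed 5′ to 3′ on the strand of the gene. Capitals mark the ISRE core GAAANNGAAA, searched on both strands. Ifi213 lies on the minus strand (chr1:173599223-173599522), Ifi205 on the minus strand (chr1:174031706-174032005) and Aim2 on the plus strand (chr1:173420354-173420653).
Ifi213: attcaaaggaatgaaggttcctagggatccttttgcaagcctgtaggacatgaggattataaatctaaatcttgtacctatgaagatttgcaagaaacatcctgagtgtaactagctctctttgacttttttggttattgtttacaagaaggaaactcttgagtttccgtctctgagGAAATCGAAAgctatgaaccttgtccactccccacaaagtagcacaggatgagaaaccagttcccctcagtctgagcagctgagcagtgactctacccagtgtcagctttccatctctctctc
Ifi205: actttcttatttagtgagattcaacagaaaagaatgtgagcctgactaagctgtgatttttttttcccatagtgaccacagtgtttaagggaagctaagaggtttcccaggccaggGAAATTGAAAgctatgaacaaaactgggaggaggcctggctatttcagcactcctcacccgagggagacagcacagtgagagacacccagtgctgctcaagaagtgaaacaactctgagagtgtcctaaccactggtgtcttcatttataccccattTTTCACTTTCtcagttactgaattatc
Aim2: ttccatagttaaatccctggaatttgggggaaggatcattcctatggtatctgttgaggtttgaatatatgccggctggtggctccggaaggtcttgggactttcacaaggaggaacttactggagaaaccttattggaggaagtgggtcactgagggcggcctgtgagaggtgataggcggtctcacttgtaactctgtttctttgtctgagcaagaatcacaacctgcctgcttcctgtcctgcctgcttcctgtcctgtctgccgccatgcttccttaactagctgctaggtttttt
The Ifi213 window holds 1 match and the Ifi205 window 2, of which the second lies after the start and on the opposite strand. The Aim2 window holds none, which says only that these letters are not in that window.

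The element is nearly the same from gene to gene. Stretches of 30 bases around the match that lies on the strand of the gene are compared here, with the 10 matching bases in capitals.
Ifi213 (chr1:173599326-173599355, minus): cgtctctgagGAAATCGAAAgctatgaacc
Ifi206 (chr1:173491339-173491368, minus): tgtctctgagGAAATCGAAAgctatgaacc
Ifi208 (chr1:173673597-173673626, plus): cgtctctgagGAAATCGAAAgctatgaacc
Ifi214 (chr1:173536017-173536046, minus): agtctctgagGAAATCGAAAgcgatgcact
Ifi203 (chr1:173942508-173942537, minus): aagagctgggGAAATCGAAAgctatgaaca
Mndal (chr1:173880204-173880233, minus): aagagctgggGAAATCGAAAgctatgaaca
Ifi207 (chr1:173741831-173741860, minus): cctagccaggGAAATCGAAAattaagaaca
Ifi205 (chr1:174031870-174031899, minus): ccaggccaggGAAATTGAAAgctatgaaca
Ifi211 (chr1:173913064-173913093, minus): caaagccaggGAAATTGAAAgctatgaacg
The Ifi209 window holds no match. Its stretch that aligns with that of Ifi214 is shown with the aligned 10 bases in capitals.
Ifi209 (chr1:173630770-173630799, plus): aatctctgagTAAATCGAAAgagatgcact
It differs from the Ifi214 stretch by 3 substitutions, G2A, G11T and C22A, with positions counted from 1 at the 5′ end of the stretch and the Ifi214 base first. G11T falls on the first base of the element.

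At least 1 ISRE core was found for 9 of the 12 genes of the cluster (75.0%) and for 3 of the 4 measured members, and the share over all 27025 genes with a window was 3.99%. By window the shares were 71.4% of the 14 and 3.44% of 32851. Several promoters of the cluster are near-identical copies, so these are not independent occurrences. The GAS core TTCNNNGAA, read alike on both strands and typical of interferon-γ targets, was found in 1 window of the cluster (Ifi202b), against 8.30% of all windows. The HIF core ACGTG, searched on both strands, was in 0 of the 14 windows against 19.6% of all windows, and GCGTG, the other form of the HIF core, was in 0 against 32.4%. In the map of the windows the element lies between 35 and 79 bases before the start in Ifi203, Ifi206, Ifi207, Ifi208, Ifi211, Ifi213, Ifi214 and Mndal (counted at its first base), and 134 bases before it in Ifi205.

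**Figure D1:**
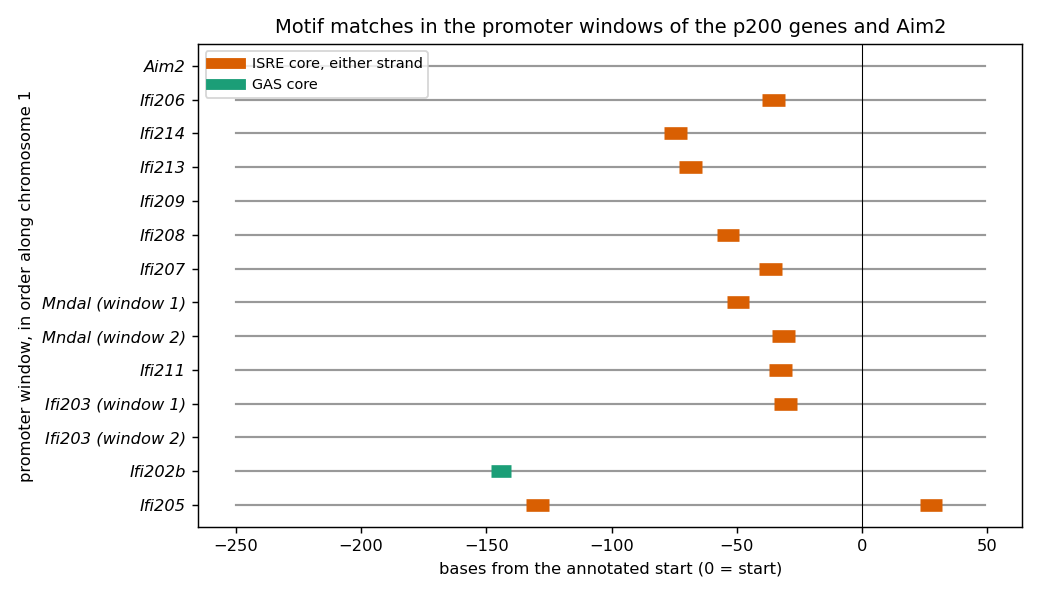
Motif matches in 14 RefSeq promoter windows of the p200 genes and Aim2, drawn against the distance in bases from the annotated start. Orange bars are ISRE cores on either strand and the green bar is a GAS core. The windows of Aim2 and Ifi209 and 1 window of Ifi203 hold neither.

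By local alignment, the promoters fell into groups of close copies. Ifi213 and Ifi208 shared 98.9% of bases over 285 aligned positions, and Ifi206 shared 98.5% with Ifi213 over 267. Ifi209 and Ifi214 shared 95.7% over 300, and Ifi203 and Mndal 94.3% over 299. Ifi205 shared 93.5% with Ifi211 over 201 positions and 86.6% with Ifi207 over 209. Transcripts of such genes can also resemble each other, and their probe signals may not be fully separate, so each value below belongs to a probe set annotated to the gene.

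The arrays numbered 2 stood apart from those numbered 1 in both genotypes, and the differences of the members are therefore also given by number. In limma, 1344 of 19938 genes (6.74%) passed an adjusted p of 0.05 between the numbers, 759 higher and 585 lower in number 2. Between the genotypes 0 passed (limma, smallest adjusted p = 0.9998, with 145 genes, or 0.727%, at an unadjusted p under 0.05). This genotype fit left the number out, so the spread between the numbers entered it. With the number as a block, 0 genes passed too (limma, smallest adjusted p = 0.536). At an unadjusted p under 0.05, that fit had 265 genes higher and 213 lower in Hif1a-/-. Marker lists of several, but not all, types of mature cell moved with the number. Of 15 dendritic cell markers, 13 lay higher in both number 2 arrays than in both number 1 arrays, as did 20.4% of all genes, with list medians of 12.23 (Hif1a-/-) and 11.83 (WT) in number 2, against 8.78 (Hif1a-/-) and 8.77 (WT) in number 1. The same held for 12 of 13 monocyte and macrophage markers, with medians of 11.11 and 11.42 in number 2, against 9.81 and 9.85 in number 1 (Hif1a-/- before WT). It also held for 13 of 14 neutrophil and granule markers, with medians of 12.64 and 11.21 in number 2, against 9.77 and 10.04 in number 1. Of 11 measured mast cell and basophil markers, 9 lay higher and 0 lower, and of 14 T and NK cell markers, 11 lay higher and 1 lower. Of 13 measured B cell markers, 1 lay higher and 2 lower in both number 2 arrays, with a median number difference of −0.34. Of 9 erythroid and megakaryocyte markers, 5 lay higher and 3 lower. Over all genes these shares were 20.4% and 27.2%. Of 10 measured stem and progenitor markers, 8 lay lower in both number 2 arrays, as did 27.2% of all genes. Ly6a, the gene of Sca-1, had no probe set of its own. Kit, which defines the gate, had signals of 11.32 and 11.51 in number 2, against 12.37 and 12.57 in number 1. Hif1a itself had 10.58 and 10.64 in the Hif1a-/- arrays, against 10.37 and 10.99 in the WT arrays, and since a probe set can cover parts outside a deletion, this does not check the genotype labels. In bulk RNA, fewer cells of a type and less RNA per cell cannot be told apart.

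Among the members, Ifi213 differed by genotype and hardly by number. Ifi213, which RefSeq also lists as Pydc4, had log2 signals of 8.93 and 8.96 in Hif1a-/- arrays 1 and 2, against 7.90 and 7.82 in WT arrays 1 and 2. Both Hif1a-/- arrays lay above both WT arrays, and within each genotype the arrays lay close together. The means were 8.94 ± 0.02 in Hif1a-/- and 7.86 ± 0.05 in WT (SD, n = 2 each), a difference of 1.08 log2 units (SE 0.11, 95% interval 0.78 to 1.38 in limma), or 2.12-fold. The difference was 1.13 in number 2 and 1.03 in number 1, and 9 genes of the 19938 had a more positive one in the mean. Decreases of any size were not counted. Between the numbers, Ifi213 differed by −0.02 (SE 0.46). The genotype difference of Ifi213 was known when the list was proposed, so these values describe it and support nothing further.

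Ifi205 showed the opposite arrangement, with a large difference by number. Ifi205, whose product controls expression of the inflammasome adaptor Pycard in mouse macrophages, had signals of 13.13 (Hif1a-/-) and 12.80 (WT) in number 2, against 9.55 (Hif1a-/-) and 8.65 (WT) in number 1. Both number 2 arrays lay far above both number 1 arrays. The mean difference between the numbers was 3.87 log2 units (SE 0.30, 95% interval 3.12 to 4.61), or 14.6-fold. A more positive one was found for 5 genes of the 19938, with decreases not counted. Within each number the Hif1a-/- array lay higher, by 0.33 in number 2 and 0.90 in number 1. The mean genotype difference of 0.61 had an SE of 1.94, because the spread between the numbers entered it. With the number as a block, its SE was 0.18 (limma, adjusted p = 0.98). The difference turned to −1.46 without WT array 1 and to −1.18 without Hif1a-/- array 2. Such fits set unequal numbers against each other, so these turns say nothing about the genotype difference within a number.

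Ifi203 and Aim2 varied little by genotype. Ifi203, a HIN-domain member of the family, had 12.35 and 11.87 in Hif1a-/- arrays 1 and 2, against 12.31 and 11.54 in WT arrays 1 and 2. The genotypes overlapped, and the difference of 0.18 (SE 0.34, 95% interval −0.76 to 1.12) came from 0.33 in number 2 and 0.04 in number 1. It turned to −0.20 without WT array 2 and to −0.06 without Hif1a-/- array 1, in fits that set unequal numbers against each other. By number Ifi203 went the other way from Ifi205, with means of 11.71 in number 2 and 12.33 in number 1, a difference of −0.62 (SE 0.14). Aim2, the DNA sensor, had 10.27 and 10.32 in Hif1a-/- arrays 1 and 2, against 10.29 and 9.99 in WT arrays 1 and 2. The genotypes overlapped, and the lowest value was that of WT array 2. The difference of 0.15 (SE 0.15, 95% interval −0.26 to 0.57) was 0.33 in number 2 and −0.02 in number 1. It was 0.01 without WT array 2 and 0.30 without WT array 1. Between the numbers Aim2 differed by −0.12 (SE 0.14).

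The probe set shared by Ifi204 and Ifi211 resembled Ifi205. Ifi204 is the mouse counterpart of the human DNA sensor gene IFI16, and this probe set cannot be given to it alone. Its signals were 11.24 (Hif1a-/-) and 10.99 (WT) in number 2, against 8.45 (Hif1a-/-) and 7.56 (WT) in number 1. The number 2 arrays were higher by 3.11 in the mean, and within the numbers Hif1a-/- lay above WT by 0.25 in number 2 and by 0.89 in number 1.

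**Figure D2:**
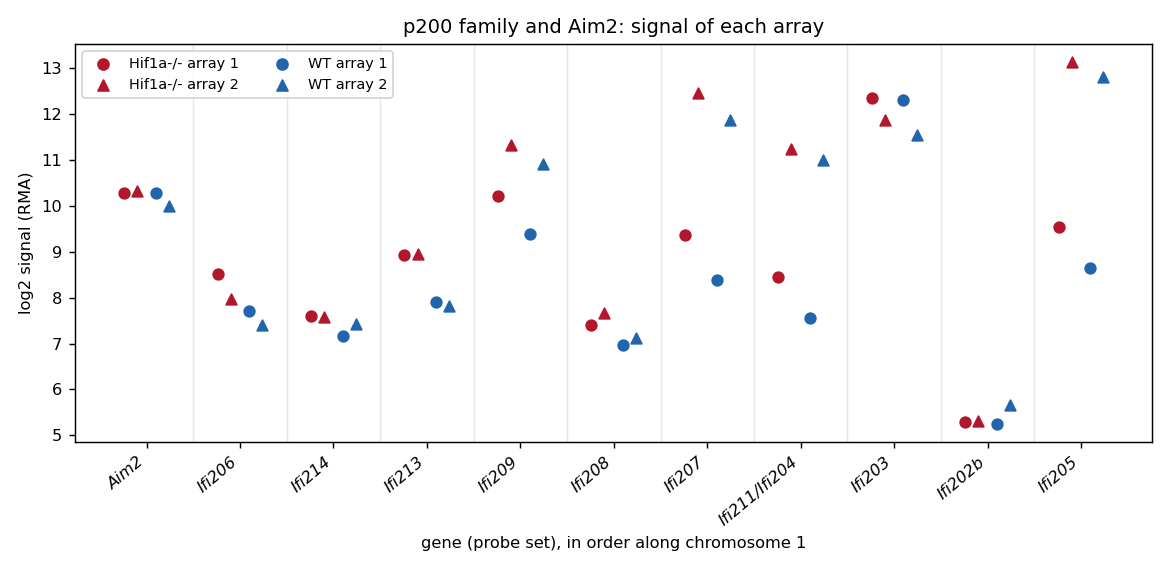
Log2 signal of each array for 11 probe sets of the family, in order along chromosome 1. Hif1a-/- arrays (red) stand left of WT arrays (blue), with circles for number 1 and triangles for number 2. Ifi213 separates by colour, as do Ifi206, Ifi208 and Ifi214 with smaller differences. Ifi205, Ifi207, Ifi209 and the probe set shared by Ifi211 and Ifi204 separate by symbol shape, with triangles above circles. So do Ifi202b, at low signals, and Ifi203, with triangles below circles.

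Among the other genes of the family, Ifi206, Ifi208 and Ifi214 were arranged by genotype and Ifi207 and Ifi209 by number. Ifi206 had 8.50 and 7.97 in Hif1a-/- arrays 1 and 2, against 7.72 and 7.41 in WT arrays 1 and 2, with a difference of 0.67 (SE 0.24). Ifi208 had 7.39 and 7.67 in Hif1a-/- arrays 1 and 2, against 6.96 and 7.13 in WT arrays 1 and 2, with a difference of 0.48 (SE 0.16). For both genes neither Hif1a-/- array reached down to a WT array. Ifi214 also had no overlap, with a smaller difference of 0.28 (SE 0.14). With an array left out, the difference was lowest at 0.40 for Ifi206 (without Hif1a-/- array 1), 0.35 for Ifi208 (without Hif1a-/- array 2) and 0.15 for Ifi214 (without WT array 1), and highest at 0.94, 0.62 and 0.42 in the same order. Ifi207 had 12.46 (Hif1a-/-) and 11.86 (WT) in number 2, against 9.37 (Hif1a-/-) and 8.38 (WT) in number 1, a number difference of 3.29 (SE 0.36). Ifi209 had 11.32 (Hif1a-/-) and 10.90 (WT) in number 2, against 10.20 (Hif1a-/-) and 9.38 (WT) in number 1, a number difference of 1.32 (SE 0.29). Within the numbers Ifi207 was higher in Hif1a-/- by 0.59 in number 2 and 0.99 in number 1, and Ifi209 by 0.43 and 0.83 in the same order. With an array left out, the mean genotype difference of Ifi207 turned to −0.95 (without WT array 1) and −0.76 (without Hif1a-/- array 2), and that of Ifi209 to −0.13 (without WT array 1). Those fits set unequal numbers against each other. With the number as a block, the genotype differences were 0.79 (SE 0.15) for Ifi207 and 0.63 (SE 0.16) for Ifi209 (limma, adjusted p = 0.98 each). Ifi202b, which encodes HIN domains without a pyrin domain, had a mean genotype difference below 0 (−0.16), unlike the other 9 of the 10 genes, with 5.29 and 5.32 in Hif1a-/- arrays 1 and 2, against 5.26 and 5.67 in WT arrays 1 and 2. These signals are low beside the median of all genes (8.56). The difference changed sign between the numbers, with 0.03 in number 1 and −0.35 in number 2.

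Counted over the 4 measured members, 1 (Ifi213) had both Hif1a-/- arrays above both WT arrays, as did 16.1% of all genes, and 0 had both below, as did 8.33%. Over the 10 genes with a probe set of their own, 4 had both Hif1a-/- arrays above (Ifi206, Ifi208, Ifi213 and Ifi214). Higher in Hif1a-/- within both numbers were 3 of the 4 members and 8 of the 10 genes, as were 27.3% of all genes, and none of the 10 was lower within both, as were 21.0%. The median genotype difference was 0.40 over the 4 members and 0.55 over the 10 genes, beside 0.00 over all genes. Since the list was proposed with this contrast known, and the probe sets can share signal, these counts describe the cluster and are no test of it. None of the 10 was among genes called between genotypes, of which there were 0%.

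By number, 1 of the 4 members (Ifi205) and 1 further gene of the family (Ifi207) were among the 3.81% of genes called higher in number 2, and 0 of the 10 were among the 2.93% called lower. Without overlap, number 2 lay above number 1 for Ifi205, Ifi207, Ifi209 and Ifi202b, as for 20.4% of all genes, and below it for Ifi203, as for 27.2%. The signals of Ifi202b were low, at 5.26 to 5.67. The genes with close promoter copies had the following number differences. Ifi209 and Ifi214, with promoters 95.7% identical, had number differences of 1.32 and 0.12. Ifi206, Ifi208 and Ifi213 had −0.43, 0.22 and −0.02, beside a median of −0.02 over all genes. Counted with the sign, 18355 of the 19938 genes had a more positive number difference than Ifi206, 2985 than Ifi208 and 9840 than Ifi213. These counts do not rank the size of the differences. Ifi205 and Ifi207 had 3.87 and 3.29.

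**Figure D3:**
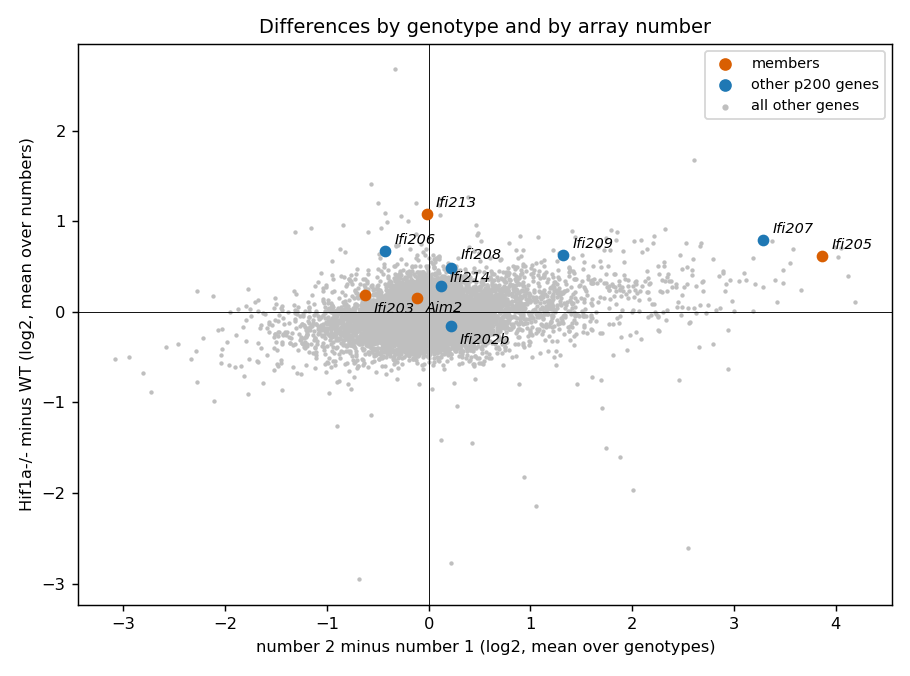
Mean genotype difference (Hif1a-/- minus WT, log2) against mean number difference (number 2 minus number 1, log2) for 19938 genes in grey, with the 4 members in orange and 6 other p200 genes in blue. Ifi213 lies high near the vertical line, at 1.08 and −0.02, and Ifi205 and Ifi207 lie far to the right, at number differences of 3.87 and 3.29.

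The profiles of Ifi205 and Ifi213 were closest to genes of different kinds. Likeness was measured as the root mean square difference of the deviations from each gene's own mean over the 4 arrays, among genes with a mean signal above the median of all genes (8.56). Closest to Ifi205 were Gpr141b (0.08 log2 units), Xcr1 (0.10), Naaa (0.15) and Clec9a (0.18). Xcr1, a chemokine receptor, and Clec9a, a receptor for dead cells, are markers of cross-presenting dendritic cells, and Naaa encodes a lysosomal amidase. Xcr1 had 12.59 (Hif1a-/-) and 12.15 (WT) in number 2, against 8.81 (Hif1a-/-) and 7.84 (WT) in number 1. Its differences between Hif1a-/- and WT were 0.44 in number 2 and 0.97 in number 1, beside 0.33 and 0.90 for Ifi205. Siglech, a marker of plasmacytoid dendritic cells, differed by 0.19 between the numbers. Over the whole dendritic cell list, 13 of 15 markers were higher in Hif1a-/- within both numbers, as were 27.3% of all genes, with a median genotype difference of 0.39. The part of these cells in the Ifi205 values was not tested.

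Closest to Ifi213 were Rag1 (0.11), Vpreb1 (0.13), Pde2a (0.13) and Lef1 (0.14). Ifi213 itself lay below the median of all genes (8.56), with means of 8.39 in number 2 and 8.41 in number 1. Its closest profiles were thus sought only among genes with a higher mean signal. Rag1, a recombinase gene of lymphocyte development, had 10.31 and 10.41 in Hif1a-/- arrays 1 and 2, against 9.05 and 9.19 in WT arrays 1 and 2. Vpreb1, of the surrogate light chain, had 9.03 and 9.01 in Hif1a-/- arrays 1 and 2, against 8.28 and 8.05 in WT arrays 1 and 2. Pde2a, a cyclic nucleotide phosphodiesterase gene, and Lef1, a Wnt-pathway transcription factor gene, differed by 1.00 and 1.18. Of 13 measured B cell markers, 11 were higher in Hif1a-/- within both numbers, as were 27.3% of all genes, with a median difference of 0.88 (0.64 in number 2, 0.99 in number 1). Their median signals were 10.93 and 10.15 in Hif1a-/- arrays 1 and 2, against 9.35 and 9.51 in WT arrays 1 and 2. The part of these cells in the Ifi213 difference was not tested. Other marker lists went either way by genotype. Of 10 stem and progenitor markers, 0 were higher and 7 lower in Hif1a-/- within both numbers, beside 27.3% and 21.0% of all genes. Of 9 erythroid and megakaryocyte markers, 0 were higher and 3 lower, and of 14 T and NK cell markers, 10 were higher and 1 lower. Genes that share 4 arrays share every technical feature of them, so likeness over 4 values is a description.

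**Figure D4:**
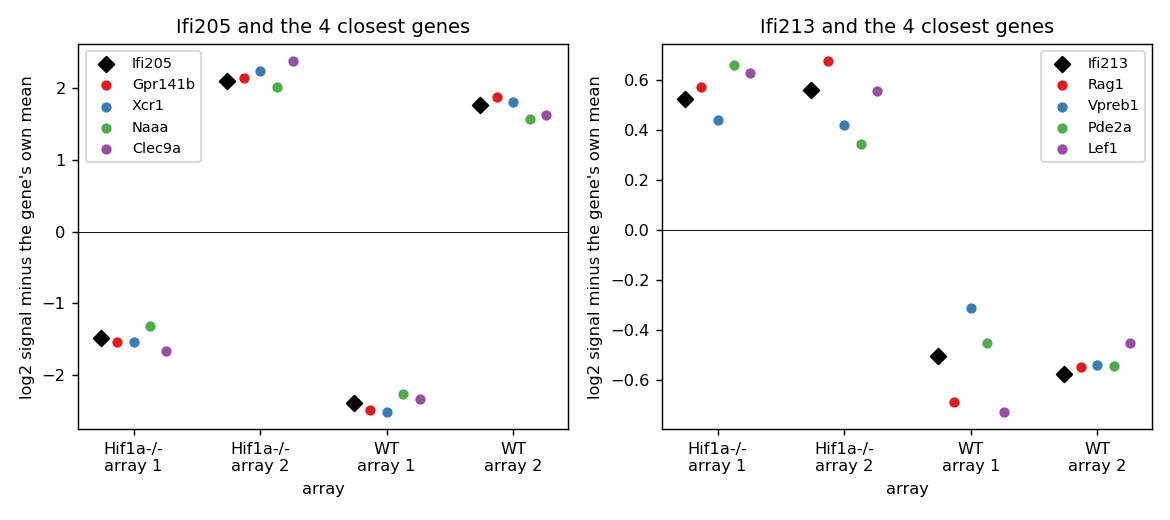
Log2 signal minus the gene's own mean in each of the 4 arrays, for Ifi205 (left) and Ifi213 (right) as black diamonds and the 4 closest genes as coloured circles. The Ifi205 set is high in both number 2 arrays, and the Ifi213 set is high in both Hif1a-/- arrays.

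Genes next to the cluster on chromosome 1 had mean genotype differences between −0.12 and 0.33. Within the cluster they ran from −0.16 (Ifi202b) to 1.08 (Ifi213), with Aim2 (0.15), Ifi203 (0.18) and Ifi214 (0.28) inside the range of the neighbours. The neighbours had mean signals below the median of all genes (8.56), and whether a difference could show at such signals was not tested. In the RefSeq gene table (GRCm38.p6) all 13 protein-coding genes from Aim2 to Ifi205 belong to the family, and 10 of them were measured alone. Of the nearest 5 measured genes on each side, 2 of 10 had both Hif1a-/- arrays above both WT arrays, the olfactory receptor genes Olfr1404 and Olfr430, with differences of 0.17 and 0.28. This count is near the 16.1% of all genes. Cadm3, an adhesion molecule gene beside Aim2, differed by 0.02 between the genotypes. Olfr433, beside Ifi205, had differences of 0.65 in number 2 and −0.05 in number 1. By number, Fcer1a, the IgE receptor α chain of mast cells and basophils, had 9.15 (Hif1a-/-) and 9.18 (WT) in number 2, against 6.19 (Hif1a-/-) and 6.13 (WT) in number 1. Fcer1a was thus higher in number 2 in both genotypes, and it differed by 0.01 between the genotypes in the mean. It was 1 of 7 among the 10 neighbours with both number 2 arrays above both number 1 arrays, as were 20.4% of all genes.

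**Figure D5:**
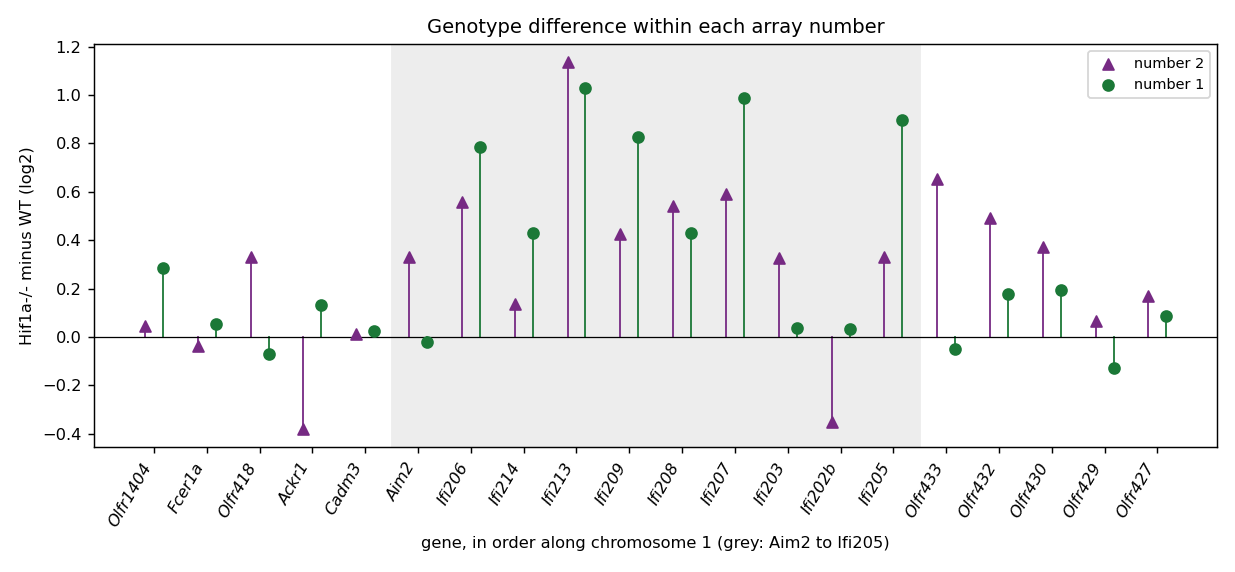
Hif1a-/- minus WT difference (log2) within number 2 (purple triangles) and number 1 (green circles) for the genes of the cluster (grey band) and the nearest 5 measured genes on each side, in order along chromosome 1. Ifi213 is the highest in both numbers, at 1.13 and 1.03, and Aim2 and Ifi202b have differences of opposite sign in the 2 numbers.

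Of 20 inflammasome genes, which act with or beside Aim2, 4 were higher and 10 were lower in Hif1a-/- within both numbers, as were 27.3% and 21.0% of all genes, and the median difference was −0.12 (−0.19 in number 2, −0.04 in number 1). None had both Hif1a-/- arrays above both WT arrays, as 16.1% of all genes did, and 3 had both below, as 8.33% did. Casp1, the protease that the Aim2 inflammasome activates, had 9.04 and 8.56 in Hif1a-/- arrays 1 and 2, against 9.21 and 9.46 in WT arrays 1 and 2, a difference of −0.54 (SE 0.22). Ninj1, which mediates membrane rupture at the end of pyroptosis, differed by −0.61 (SE 0.41), of which −1.15 in number 2 and −0.07 in number 1. By number, limma called 4 inflammasome genes higher and 1 lower, where 3.81% and 2.93% of all genes were called, among them Naip2, a sensor of bacterial proteins (1.41 higher in number 2), and Nlrp3, another inflammasome sensor (1.30 higher).

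Among 26 genes of cytosolic and endosomal nucleic acid sensing, 7 were higher and 6 lower in Hif1a-/- within both numbers, close to the 27.3% and 21.0% of all genes. Dhx58 and Adar, which act on double-stranded RNA, differed by 0.30 (SE 0.15) and 0.21 (SE 0.13), and Dnase2a, a lysosomal nuclease gene, by −0.20 (SE 0.13). The kinase gene Ikbke differed by −0.18. Tlr3 and Tlr9, endosomal sensors of RNA and DNA, were 3.21 and 1.70 higher in number 2 than in number 1, and 5 genes of this list were called higher and 3 lower by number, beside 3.81% and 2.93% of all genes.

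Interferon receptor and signalling genes had a median genotype difference of 0.05 over 21 genes, 7 higher and 3 lower within both numbers (27.3% and 21.0% of all genes). Ifnar2, a chain of the type I interferon receptor, differed by −0.19 (SE 0.13) with no overlap. The transcription factor genes Irf5 and Irf8 were 1.97 and 1.66 higher in number 2, and 8 of the 21 genes were called higher by number, beside 3.81% of all genes. Of 34 interferon-response genes, 27 were higher in Hif1a-/- within both numbers, as were 27.3% of all genes, and 12 had both Hif1a-/- arrays above both WT arrays, as had 16.1%. Oas2 and Mx2, antiviral effector genes, differed by 0.59 each (SE 0.30 and 0.13). Mx1 was 0.71 higher in Hif1a-/- (0.54 in number 2, 0.88 in number 1) and 1.67 higher in number 2 than in number 1, and Ifit3 was 0.82 higher (0.52 in number 2, 1.12 in number 1) and 1.07 higher by number. The median genotype difference of this list was 0.25, beside 0.40 for the 4 members.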

How the data were processed

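Amplified RNA was hybridised to 4 whole-transcript arrays (Affymetrix), 2 per genotype. The authors deposited log2 signals per probe set. Per the submitters' processing notes, they used RMA and Affymetrix Expression Console 1.1. Base 2 was inferred, as the values span 3.08 to 14.88. RMA normalizes between arrays, so a change shared by all genes would be removed before deposit. The genome build behind the files is not given in the sources.

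Of 35556 probe sets, 21789 had 1 gene symbol in the platform annotation, 1621 several and 12146 none. Genes were named from probe sets with 1 symbol, and where a gene had several (999 genes) the one with the highest mean was used, leaving 19938 genes. Dim probe sets were kept. The 4 arrays were assigned by title, and 0 columns belonged to other samples.

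Genotypes (Hif1a-/- minus WT) and array numbers (2 minus 1) were each fitted in limma 3.58.1 (R 4.3.3) by lmFit and eBayes, two-sided and without covariates, with Benjamini-Hochberg adjustment over all genes and a threshold of 0.05. Whether the arrays come from separate mice is not stated, so p-values measure only the spread between these arrays. The members and lists were chosen with earlier results of these data known. Named were the members, Hif1a, in each pathway list up to 2 genes per direction with the largest genotype difference and no overlap and the 2 with the largest number difference, the 4 closest profiles to each of the 2 members with the widest range, and the nearest 5 measured genes on each side of the cluster. Markers named individually illustrate their list and were chosen after their values were seen. Promoter windows were searched with Biopython 1.88 for local alignment (match 2, mismatch −3, gap −5 and −2). The fit was tried on simulated data, in which genotype changes were added without a number difference. The trial therefore does not cover a genotype fit on arrays that differ by number, as these do. Alternatives were a replicate block, genotype as a term, each array left out, 3 normalizations, a filter on dim genes, averaged probe sets, and eBayes with trend and robust.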

Additional observations from a re-analysis of the deposited data

How the results depend on the processing

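The genotype fit called 0 genes under all 11 alternatives (limma, smallest adjusted p between 0.536 with the replicate block and 1.0000 under quantile normalization), and the genotype difference of Ifi213 lay between 0.99 and 1.12 under every one. The labels number the arrays 1 and 2 in each genotype without saying what a number marks. Across genes, the differences between numbers 2 and 1 in the Hif1a-/- pair and in the WT pair correlated at 0.67, and the replicate block changed no call. With an array left out, the genotype difference turned for Ifi205 (−1.46 to 2.69), Ifi207 (−0.95 to 2.53), Ifi209 (−0.13 to 1.39), Ifi203 (−0.20 to 0.57) and Ifi202b (−0.36 to 0.05), since each such fit sets unequal numbers against each other. The genes called between the numbers ranged from 319 to 4661 with an array left out (319 without WT array 1, 458 without Hif1a-/- array 1, 4602 without Hif1a-/- array 2, 4661 without WT array 2), and lower genes outnumbered higher ones when WT array 2 was left out (1751 higher, 2910 lower). Median centring gave 667 (512 higher, 155 lower), against 759 higher and 585 lower as reported, and the cause was not tested. Ifi205 and Ifi207 were called by number under the 7 alternatives that keep all arrays (limma, adjusted p 0.00182 to 0.0126 and 0.00312 to 0.0202). A fit without an array leaves 1 number with a lone array, assumed to vary like the other pair, so its calls say nothing about stability. Ifi209 passed with genotype as a term and under eBayes with trend and robust (limma, adjusted p = 0.0155 and 0.0498). It did not pass under the other alternatives that keep all arrays. With an array left out, its number difference lay between 0.91 and 1.73. Fits without an array also called Ifi203 (−0.79 without Hif1a-/- array 2, −0.46 without WT array 2), Ifi202b (0.39) and Ifi206 (−0.70) without Hif1a-/- array 2, and Ifi208 (0.49) without WT array 2. The near-zero number difference of Ifi213 turned to 0.05 under quantile normalization, 0.03 under cyclic loess and 0.02 under median centring, and lay between −0.59 and 0.55 with an array left out. The number differences of Aim2 (−0.28 to 0.05), Ifi208 (−0.05 to 0.49) and Ifi214 (−0.10 to 0.33) also turned with an array left out. Without the dimmest 40% of genes, Ifi202b, Ifi206, Ifi208 and Ifi214 had no value.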
